A study of Homo sapiens with 6 samples.

Results

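The genes described are 58 listed genes of the short arm of human chromosome 20, among them PCNA, of 25330 genes in the count table. They lie between positions 270863 and 18561415 of GRCh38, from C20orf96 at the telomere side to SEC23B. The list was drawn up from the difference between the groups, in which these genes shared a downward shift, so that difference is described here with no test over the genes. One of them, listed as C20orf27, stands in the table under its newer symbol ADISSP. Of the 58, 57 had enough reads to enter the model, which covered 14199 genes. The exception was PLCB1, a phospholipase, with 0 counts in all knockout libraries and 1 count in 1 control library. Levels are given in CPM, the usual unit of counts scaled to library size. A count of 0 at these depths allows up to 0.095 to 0.118 CPM, counting error only.

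All libraries were made from MDA-MB-231 cells, a widely used line of human triple-negative breast cancer. The knockout group is labelled RNASEH2A KO (RN1) and the control group CTRV2, with 3 libraries each, and RNA of each group was taken from different passages in 1 labelled batch. Neither group received a treatment, and whether RN1 is 1 clone or a pool of edited cells, and how CTRV2 was made, was not stated in the labels. P-values therefore measure the spread between passages, and any difference that arose when RN1 was derived cannot be told apart from the knockout.

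Library totals ran from 27928670 to 31596286 counts in the knockout and from 25419877 to 29635083 in the controls. The targeted gene does not check the labels: RNASEH2A, the catalytic subunit of ribonuclease H2, had 7, 8 and 16 counts in the knockout libraries and 10, 6 and 15 counts in the controls. VIM, CD44, EGFR and CAV1, which are high in this line, were abundant in all 6 libraries, VIM at 695 to 758 CPM. The estrogen receptor gene ESR1 and the basal keratin gene KRT5 had no count in any library. PTPRC, the leukocyte marker, reached at most 0.236 CPM, PGR, the progesterone receptor gene, at most 0.430 CPM, the endothelial PECAM1 at most 0.628 CPM and the epithelial cadherin gene CDH1 at most 2.29 CPM. EPCAM, an epithelial marker listed as low or absent, was present at 15.4, 20.8 and 22.0 CPM in the knockout, against 13.1, 16.5 and 15.6 CPM in the controls. PDGFRB, listed for fibroblasts, was present at 27.7, 13.9 and 15.7 CPM in the knockout, against 15.6, 11.6 and 11.4 CPM in the controls. Both overlapped between groups. At their low levels PTPRC, with no count in any knockout library, and PECAM1 were lower in all knockout libraries than in all controls, and PGR was higher. Of the high markers EGFR was also lower, at 390, 370 and 388 CPM in the knockout, against 414, 402 and 417 CPM in the controls. VIM, CD44 and CAV1 overlapped. The part of these markers in the results was not tested. At an adjusted p under 0.05 (edgeR quasi-likelihood test, Benjamini-Hochberg over all tested genes) 1718 genes changed, 883 lower and 835 higher in the knockout, which is 12.1% of those tested. That count was 3430 without knockout library 1, 524 without knockout library 3, and 1055, 649 and 550 without control libraries 1, 2 and 3. The median log2 fold change over all tested genes was 0.004.

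The genes of distal 20p serve many processes, from DNA replication and RNA processing to vesicle traffic, and some start back to back with a neighbour. PCNA encodes the sliding clamp that holds DNA polymerases on the template and recruits the enzymes that join and process Okazaki fragments. Ribonuclease H2 itself binds that clamp through its RNASEH2B subunit.

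PCNA shares its upstream region with CDS2, which makes the phospholipid precursor CDP-diacylglycerol, and MCM8, a helicase of homologous recombination, shares its own with TRMT6, a subunit of the tRNA m1A methyltransferase. The starts of PCNA and CDS2 are 385 bases apart, and those of TRMT6 and MCM8 118 bases apart. Of the back-to-back pairs compared, only TRMT6 and MCM8 had a ratio between the genes of the pair that separated the groups. Such ratios were not computed for pairs elsewhere, so no background share stands beside this. Among single tested genes, all knockout libraries lay below all controls for 17.4% and above them for 16.1%. The upstream sequences of TRMT6 and MCM8 are shown, and those of PCNA and CDS2, a pair whose ratio overlapped. They are RefSeq sequences on GRCh38.p14, written 5′ to 3′, with every CCAAT (the box bound by NF-Y) and GGGCGG (the GC box bound by SP1) in capitals. A match on the other strand appears as ATTGG or CCGCCC, and GGGCGG matches may overlap each other.
PCNA, 250 bases before its start, chr20:5126623-5126872, minus strand: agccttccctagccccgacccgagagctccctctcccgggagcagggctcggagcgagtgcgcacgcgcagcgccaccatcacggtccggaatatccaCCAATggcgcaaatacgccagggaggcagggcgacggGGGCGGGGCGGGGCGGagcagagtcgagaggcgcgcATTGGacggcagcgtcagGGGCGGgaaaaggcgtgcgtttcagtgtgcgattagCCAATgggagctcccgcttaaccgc
CDS2, 250 bases before its start, chr20:5126758-5127007, plus strand: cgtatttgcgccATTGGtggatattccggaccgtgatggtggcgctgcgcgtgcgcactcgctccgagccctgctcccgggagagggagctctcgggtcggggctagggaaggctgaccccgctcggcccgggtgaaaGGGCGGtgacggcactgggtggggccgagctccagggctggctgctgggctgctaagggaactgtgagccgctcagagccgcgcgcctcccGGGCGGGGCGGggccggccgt
MCM8 and TRMT6, all bases between their starts, chr20:5950534-5950651, plus strand: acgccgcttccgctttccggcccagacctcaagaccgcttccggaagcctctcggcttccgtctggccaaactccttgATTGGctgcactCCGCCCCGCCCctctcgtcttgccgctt
The PCNA window holds 3 CCAAT boxes and 4 GGGCGG boxes, of which 3 overlap. The CDS2 window holds 1 CCAAT box and 3 GGGCGG boxes, and the stretch between MCM8 and TRMT6 holds 1 CCAAT box and 2 GGGCGG boxes. Neither the PCNA nor the CDS2 window contains TTTCGCGC or TTTGGCGC, the spellings of the E2F site that were searched on both strands.

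Of the 57 tested genes, 50 had a negative log2 fold change in the knockout, where 49.4% of all tested genes did. In 25 of them the gene was called lower, against 6.22% of all tested genes, and in 1, KIF16B, it was called higher, against 5.88%. All 3 knockout libraries lay below all 3 controls for 37 genes, against 17.4% of all tested genes, and above them for KIF16B, against 16.1%. Since the genes were chosen on this contrast, nothing is read from these shares. The count called lower was 14 without knockout library 3, 12 without control library 2 and 11 without control library 3, and 20 to 31 without each of the others. KIF16B was not called without knockout library 3, control library 2 or control library 3.

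The shifts were small. The median log2 fold change of the 57 genes was -0.26, with quartiles of -0.40 and -0.11, and no gene reached a 2-fold difference. Summed over the genes, the level was 5416, 5057 and 5168 CPM in the knockout libraries, against 6246, 6363 and 6338 CPM in the controls. Every knockout library was below every control. In these bulk libraries, fewer cells that express a gene and less of its RNA per cell cannot be told apart.

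**Figure D1:**
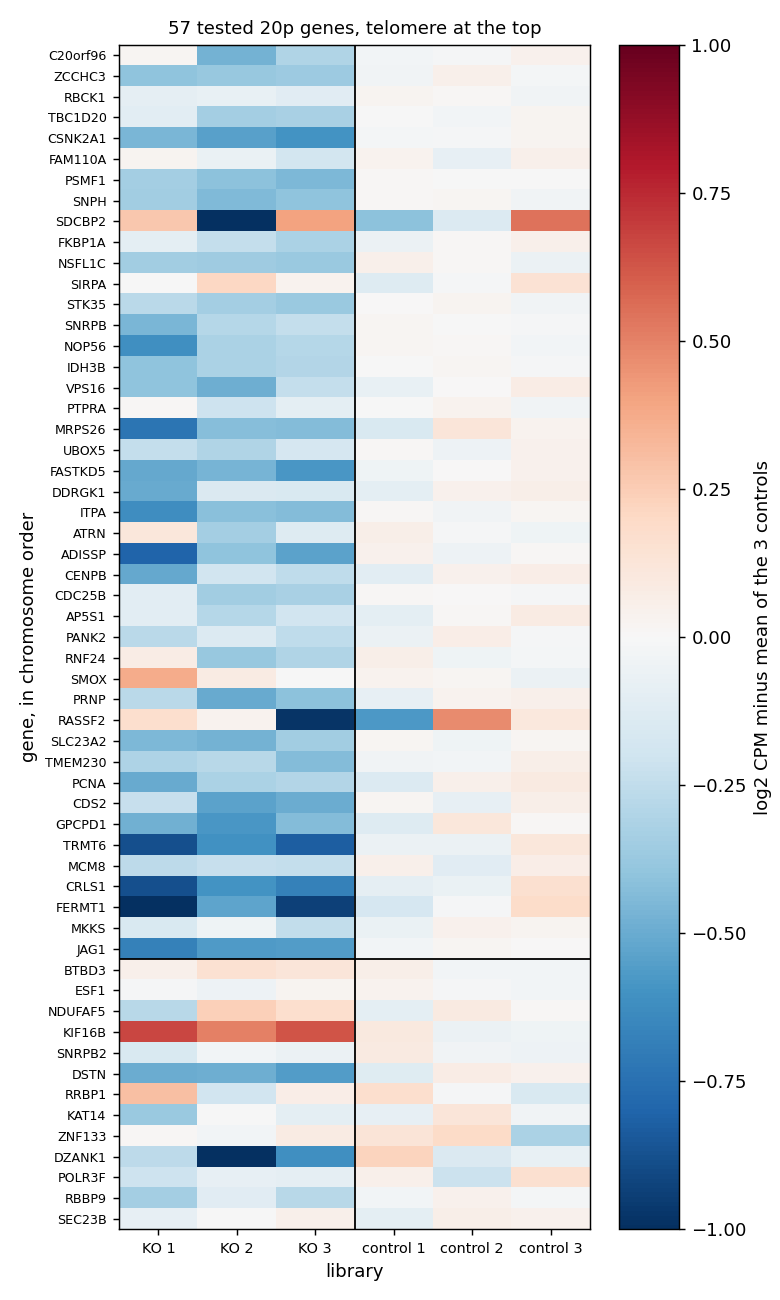
Colour map of the 57 tested genes (rows, in chromosome order from the telomere, with a line after JAG1) in each library (columns, knockout at left), as log2 CPM minus the mean of the 3 controls, with values beyond 1 in either direction drawn in the end colour. Most knockout cells are blue (lower) down to JAG1 and paler below it, where KIF16B is red (higher) and DSTN blue.

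The downward shift was concentrated in the distal stretch. A boundary between JAG1 (ends at 10673999) and BTBD3 (starts at 11890817) was set after the values were seen, so its sides are described and not tested. On the telomere side of it, from C20orf96 to JAG1, 42 of 44 tested genes were negative, 24 were called lower and the median was -0.33, where 49.4% of all tested genes were negative and 6.22% called lower. On the other side, from BTBD3 to SEC23B, 8 of 13 were negative, 1 was called lower and 1 higher, and the median was -0.01. That 7.69% called lower is near the share of all tested genes, and 5.88% of those were called higher. ESF1 and SEC23B, both at -0.01, turned slightly positive when libraries were scaled by size alone or when no filter on low counts was used.

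By library, the distal genes had a median log2 CPM relative to the control mean of -0.32, -0.35 and -0.32 in the knockout libraries, against -0.02, 0.00 and 0.03 in the controls. The groups were well apart. The genes beyond the boundary had medians of -0.16, -0.03 and 0.03 in the knockout libraries, against 0.05, -0.01 and -0.03 in the controls. Here knockout library 1 stood below all others, library 2 just below the controls and library 3 among them.

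Other genes of the same stretch, not on the list, give a comparison. Of 33 such tested genes inside the span, 25 were negative, with a median of -0.32. Between C20orf96 and JAG1, 21 of 25 were negative, 6 were called lower and 2 higher, with a median of -0.35. Of all tested genes, 49.4% were negative, 6.22% were called lower and 5.88% higher. Beyond JAG1, 4 of 8 were negative, with a median of -0.03. On each side of the boundary the unlisted genes thus had a median close to that of the listed ones. By library, the 25 distal unlisted genes had medians of -0.08, -0.37 and -0.37 in the knockout libraries, against -0.06, 0.05 and 0.03 in the controls, so knockout library 1 lay close to control library 1 for these.

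In windows of 2 Mb over all tested genes, listed or not, the median was -0.35 over 19 genes between 0 and 2 Mb and -0.32 over 27 genes between 2 and 4 Mb. All 27 genes of that second window were negative. Listed genes, chosen on this contrast, made up 12 of the 19 genes of the first window and 18 of the 27 of the second. The median was -0.36 over 14 genes (10 of them listed) between 4 and 6 Mb. It was -0.81 over only 4 genes (2 of them listed) between 6 and 8 Mb. The window from 8 to 10 Mb held 1 tested gene, PLCB4, at -4.04. Between 10 and 12 Mb, around the boundary, the median was -0.15 over 5 genes. Past it, the median was 0.06 over 5 genes from 12 to 14 Mb, -0.13 over 8 from 16 to 18 Mb, -0.09 over 10 from 18 to 20 Mb and -0.13 over 7 from 20 to 22 Mb. Windows past the boundary were thus close to 0 or slightly negative, and some were nearly as negative as the window that holds it.

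Past the SEC23B end of the span, the next tested gene, SMIM26, had a log2 fold change of -0.05 ± 0.12 and the one after it, DTD1, -0.13 ± 0.15 (± SE throughout). Just inside that end, SEC23B had -0.01 ± 0.07, and at the telomere end C20orf96, with no tested gene before it, had -0.24 ± 0.19. The 31 tested genes of 20p beyond the span had a median of -0.08, with 20 negative. Of these 31, 5 (16.1%) were called lower and 0 higher, against 6.22% and 5.88% of all tested genes. On the 20q side of the stretch without tested genes from 25696853 to 29080390, 128 of 256 tested genes were negative, with a median of 0.00. There 10 were called lower and 12 higher, where 6.22% and 5.88% of all tested genes were.

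**Figure D2:**
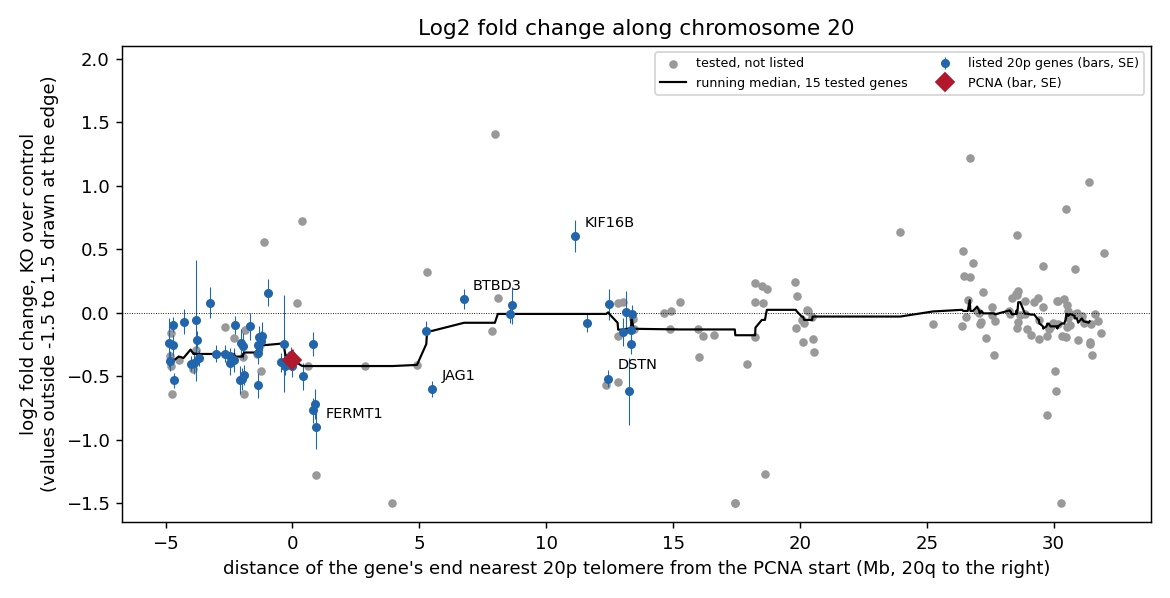
Log2 fold change of knockout over control (vertical axis) for tested genes of chromosome 20, as single points, against the distance from the PCNA start in Mb (horizontal axis). Listed genes and PCNA carry SE bars, the line is a running median of tested genes, and it lies below 0 on the left up to JAG1 and near 0 after it.

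**Figure D3:**
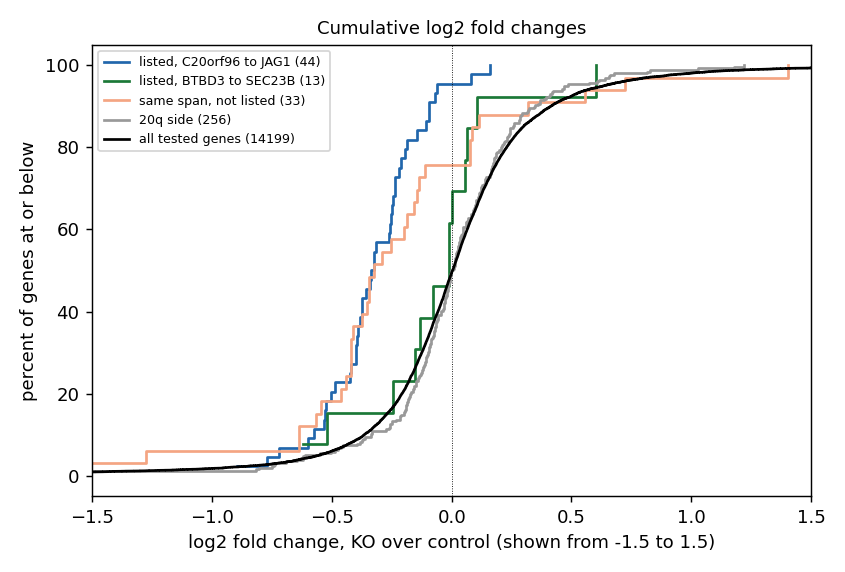
Cumulative share of genes (vertical axis) by log2 fold change of knockout over control (horizontal axis). Over most of their range the curves of the listed genes up to JAG1 and of the unlisted genes of the span lie to the left of those of the 20q side and of all tested genes.

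PCNA was lower in the knockout, by an amount within the range of its listed neighbours. It lies on the minus strand at chr20:5114953-5126622. It had 134, 152 and 154 CPM in the knockout libraries, against 172, 196 and 201 CPM in the controls. The groups did not overlap, and the lowest library of each group was replicate 1. The means were 146.6 ± 11.2 CPM in the knockout and 189.8 ± 15.6 CPM in the controls (SD, n = 3 each), and the log2 fold change was -0.37 ± 0.08. PCNA was called lower with all 6 libraries, and lost that call without knockout library 3, control library 2 or control library 3.

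Among the 57 genes PCNA ranked 21st from the most negative, with 20 more negative, and 14 genes were within 0.1 of it. Its log2 CPM minus the mean of the other 56 was 1.83, 2.03 and 2.04 in the knockout libraries, against 1.96, 2.11 and 2.13 in the controls. The ranges overlapped, though at every replicate number the knockout value was below the control value. The difference of the group means was -0.10, with SDs of 0.12 in the knockout and 0.10 in the controls. It was -0.03 without knockout library 1 and -0.15 without control library 1. Set against the other 43 distal genes alone, the difference was -0.04. It was 0.04 without knockout library 1, and -0.08 without control library 1 and likewise without knockout library 3. Against its 10 nearest tested genes it was -0.10, with 0.01 without knockout library 1 and -0.21 without knockout library 3. In both of these comparisons, knockout library 3 was not below control library 3. The difference from the other 56 genes was thus about 1 SD between replicates, with the replicate numbers not used to pair libraries. That does not show that PCNA and its neighbours shifted equally.

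The genes next to PCNA on the list were also lower, RASSF2 excepted. TMEM230, a membrane protein of vesicle trafficking and the closest gene on the telomere side, had 110.1, 113 and 101 CPM in the knockout libraries, against 133, 134 and 142 CPM in the controls (-0.34 ± 0.07). SLC23A2, a sodium-dependent vitamin C transporter, had 47.5, 46.8 and 50.9 CPM in the knockout, against 65.7, 63.1 and 65.9 CPM in the controls (-0.42 ± 0.07). For both, every knockout library was below every control, and both were called lower. CDS2, which starts back to back with PCNA, had 72.5, 58.7 and 60.3 CPM in the knockout, against 86.5, 80.7 and 88.9 CPM in the controls (-0.42 ± 0.09). It was called lower, and unlike PCNA it was highest of the knockout libraries in replicate 1. RASSF2, a RAS-association domain protein, had a low level, at 1.74, 1.58 and 0.749 CPM in the knockout and 1.01, 2.17 and 1.67 CPM in the controls, and its groups overlapped (-0.24 ± 0.38).

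A pair of unlisted features follow CDS2. The pseudogene UBE2D3P1 had 0.685, 0.791 and 0.571 CPM in the knockout and 0.607, 0.772 and 0.555 CPM in the controls, with the groups overlapping. LINC00654, a long noncoding RNA, went the other way, at 7.94, 6.33 and 6.45 CPM in the knockout and 3.75, 4.77 and 4.05 CPM in the controls (0.72 ± 0.16). All its knockout libraries were above all its controls, so the downward shift did not take in every transcript beside PCNA.

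**Figure D4:**
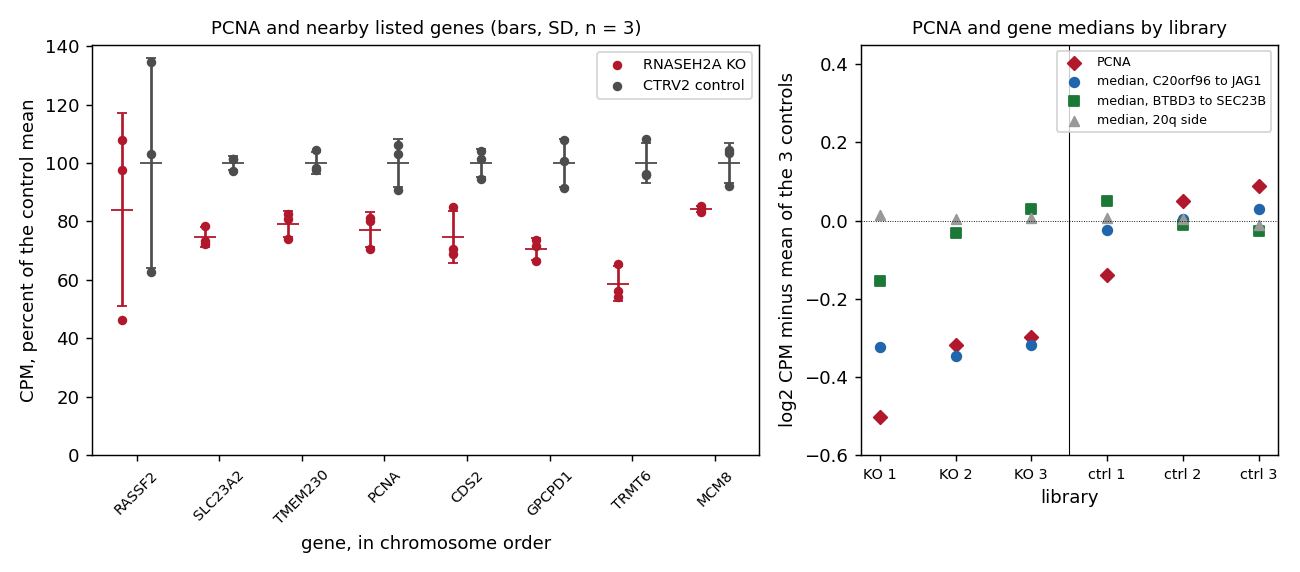
Left, CPM of PCNA and nearby listed genes as a percent of the control mean, with 1 point per library, a line at the mean and bars of SD (n = 3 each), knockout left of control for each gene. Right, log2 CPM relative to the control mean for PCNA and for the medians of 3 gene groups in each library, where PCNA lies near the median of the distal genes in knockout libraries 2 and 3 and below it in knockout library 1.

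CDC25B, the phosphatase that activates cyclin-dependent kinases, had 235, 199 and 203 CPM in the knockout, against 255, 254 and 251 CPM in the controls (-0.25 ± 0.07). MCM8 had 15.2, 15.6 and 15.4 CPM in the knockout, against 18.9, 16.8 and 19.0 CPM in the controls (-0.25 ± 0.09). Neither overlapped between groups, and neither was called in the main edgeR fit of all 6 libraries, where CDC25B lay just outside the threshold. CENPB, which binds a motif of centromeric alpha-satellite DNA and starts 210 bases from CDC25B, had a log2 fold change of -0.31 ± 0.09 and also lay just outside it. DESeq2, edgeR with no filter on low counts and edgeR with the replicate block called both CDC25B and CENPB lower. CDC25B was also called by limma on the deposited log2 CPM, and CENPB with library size as the only scaling and with scaling factors computed without chromosome 20.

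Genes on other chromosomes whose products work with those of the listed genes were taken by known function. Of 116 tested partner genes, 2 were called lower and 4 higher, or 5.17%, below the 12.1% of all tested genes, and their median was 0.02. DESeq2 called 8. The count was 19 without knockout library 1, 1 without knockout library 3, and 2 without control library 2 and likewise without control library 3. Calls over all tested genes moved too, to 23.8% without knockout library 1 and 3.61% without knockout library 3. They were 4.48% and 3.79% without control libraries 2 and 3, and 15.5% with DESeq2. The 27 clamp loaders and clients of PCNA had a median of -0.03, with 14 negative. Among them DNMT1, the maintenance DNA methyltransferase, averaged 359 ± 14.7 CPM in the knockout libraries and 426 ± 21.3 CPM in the controls (SD, n = 3 each), with a log2 fold change of -0.25 ± 0.06 and an edgeR adjusted p of 0.0311. CDKN1A, the p21 inhibitor that binds both PCNA and cyclin-dependent kinases, averaged 258 ± 18.7 CPM in the knockout libraries and 189.9 ± 16.5 CPM in the controls (0.44 ± 0.08, edgeR adjusted p = 0.00944). For both genes all knockout libraries lay on one side of all controls. RNASEH2B, through which ribonuclease H2 binds the clamp, averaged 34.9 ± 4.07 CPM in the knockout libraries and 39.1 ± 2.66 CPM in the controls, did not pass the test and overlapped between groups. The 10 genes of cyclin-dependent kinase control, which include the inhibitory kinases WEE1 and PKMYT1, had a median of 0.16. The 9 genes of the MCM helicases and linked factors, MCM10 and HROB among them, had a median of -0.09.

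Among the genes for RNA processing, SNRPB and NOP56 of the distal stretch were lower. SNRPB, the SmB protein of the spliceosomal small nuclear ribonucleoproteins, had 189.7, 213 and 221 CPM in the knockout, against 264, 259 and 257 CPM in the controls (-0.32 ± 0.07). NOP56, a core protein of the box C/D small nucleolar ribonucleoproteins, had 99.5, 123 and 125 CPM in the knockout, against 154, 153 and 149.6 CPM in the controls (-0.40 ± 0.09). Both were called lower and both were lowest in knockout library 1. SNRPB2, the U2 protein B″, lies beyond the boundary and overlapped, with 61.6, 67.4 and 66.0 CPM in the knockout and 72.8, 67.1 and 66.0 CPM in the controls (-0.08 ± 0.07). The genes for their partners on other chromosomes had medians of -0.05 over 10 U snRNP proteins and -0.09 over 9 snoRNP proteins. Of these SNRPE passed, averaging 52.3 ± 1.61 CPM in the knockout libraries and 64.9 ± 0.744 CPM in the controls (-0.31 ± 0.07, edgeR adjusted p = 0.0164).

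TRMT6 was the second most negative gene of the list. It had 23.5, 28.4 and 24.4 CPM in the knockout, against 41.6, 41.5 and 46.8 CPM in the controls (-0.77 ± 0.10), and was called lower. Its log2 ratio to MCM8, with which it shares the upstream stretch shown above, was 0.63, 0.86 and 0.66 in the knockout libraries, against 1.14, 1.30 and 1.29 in the controls. The ratio was lower in every knockout library than in every control. The ratio of PCNA to CDS2 overlapped, at 0.88, 1.37 and 1.35 in the knockout and 0.99, 1.28 and 1.18 in the controls. In the other back-to-back pairs compared, CENPB with CDC25B, ESF1 with NDUFAF5 and DZANK1 with POLR3F, the ratio overlapped as well. TRMT61A, the catalytic partner of TRMT6, averaged 50.3 ± 7.16 CPM in the knockout libraries and 41.0 ± 4.32 CPM in the controls and did not pass (0.30 ± 0.12). POLR3F, a subunit of RNA polymerase III, had 14.6, 16.0 and 15.9 CPM in the knockout and 17.5, 14.6 and 18.9 CPM in the controls, with overlap (-0.13 ± 0.12). The 10 other polymerase III genes had a median of -0.09.

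The deepest shift was that of FERMT1, or kindlin-1, which activates integrins at focal adhesions. It had 11.3, 19.3 and 14.5 CPM in the knockout, against 24.7, 27.6 and 31.6 CPM in the controls (-0.90 ± 0.18). CRLS1, the mitochondrial cardiolipin synthase, had 9.90, 12.1 and 11.4 CPM in the knockout, against 17.2, 17.5 and 20.4 CPM in the controls (-0.72 ± 0.12). Both were called lower with no overlap, and they lie beside TRMT6 and MCM8. JAG1, the Notch ligand at the boundary, had 72.0, 77.3 and 78.0 CPM in the knockout, against 113, 117 and 115 CPM in the controls (-0.60 ± 0.06). Its libraries were tight within each group. The 12 tested Notch pathway genes elsewhere, receptors, other ligands and targets, had a median of 0.08, with 5 negative.

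ADISSP, an adipose-secreted signalling protein, had 74.9, 98.8 and 89.9 CPM in the knockout, against 134, 126 and 132 CPM in the controls (-0.57 ± 0.10) and was called lower. DZANK1, a zinc-ribbon and ankyrin repeat protein near the SEC23B end of the span, was low, at 1.84, 1.08 and 1.43 CPM in the knockout and 2.60, 2.00 and 2.10 CPM in the controls. Its libraries did not overlap, but it was not called (-0.62 ± 0.27). DSTN, or destrin, an actin-depolymerising factor, was the gene beyond the boundary that was called lower. It had 265, 266 and 254 CPM in the knockout, against 345, 394 and 386 CPM in the controls (-0.52 ± 0.07).

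Genes for kinase, metabolic and vesicle complexes also stood among the lower ones. CSNK2A1, the alpha catalytic subunit of casein kinase 2, had 147, 139 and 133 CPM in the knockout, against 199, 200.4 and 206 CPM in the controls (-0.53 ± 0.06). It was called lower, with the groups well apart. The other catalytic subunit, CSNK2A2, averaged 48.3 ± 2.07 CPM in the knockout libraries and 40.9 ± 2.39 CPM in the controls, and the regulatory CSNK2B 17.1 ± 0.842 CPM in the knockout libraries and 15.6 ± 0.661 CPM in the controls, and neither passed. IDH3B, the beta subunit of the mitochondrial NAD-dependent isocitrate dehydrogenase, had 73.6, 78.1 and 79.2 CPM in the knockout, against 97.1, 98.5 and 96.4 CPM in the controls (-0.34 ± 0.06). It too was called lower, while its partners IDH3A and IDH3G had log2 fold changes of -0.07 ± 0.11 and 0.09 ± 0.08 and did not pass.

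VPS16, a core subunit of the HOPS and CORVET tethers of endosomes, had 23.7, 22.4 and 26.5 CPM in the knockout, against 29.7, 31.3 and 33.0 CPM in the controls (-0.37 ± 0.09) and was called lower. All 6 other tether genes had positive values, of which VPS41 passed, averaging 51.2 ± 1.91 CPM in the knockout libraries and 42.2 ± 0.142 CPM in the controls (0.28 ± 0.07, edgeR adjusted p = 0.0318). AP5S1, a subunit of the AP-5 adaptor, had 21.8, 19.3 and 20.6 CPM in the knockout, against 22.0, 23.7 and 24.9 CPM in the controls (-0.19 ± 0.09), with no overlap but no call. Its partner AP5Z1 rose, averaging 70.3 ± 4.84 CPM in the knockout libraries and 46.7 ± 2.47 CPM in the controls (0.59 ± 0.08, edgeR adjusted p = 0.00213). In both complexes the 20p subunit and this partner thus had opposite signs. RBCK1, or HOIL-1 of the linear ubiquitin ligase, had 77.5, 78.6 and 76.4 CPM in the knockout, against 84.1, 83.2 and 80.8 CPM in the controls (-0.09 ± 0.06), and was not called. IKBKG, the NEMO protein that binds linear ubiquitin, averaged 19.5 ± 2.07 CPM in the knockout libraries and 14.6 ± 1.07 CPM in the controls (0.42 ± 0.11, edgeR adjusted p = 0.0374). It was higher in the knockout while RBCK1 had a small negative value. SEC23B, of the COPII coat that buds vesicles from the endoplasmic reticulum, had 104, 109 and 114 CPM in the knockout and 102, 114 and 113 CPM in the controls, with overlap. The 10 other COPII genes had a median of 0.10.

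**Figure D5:**
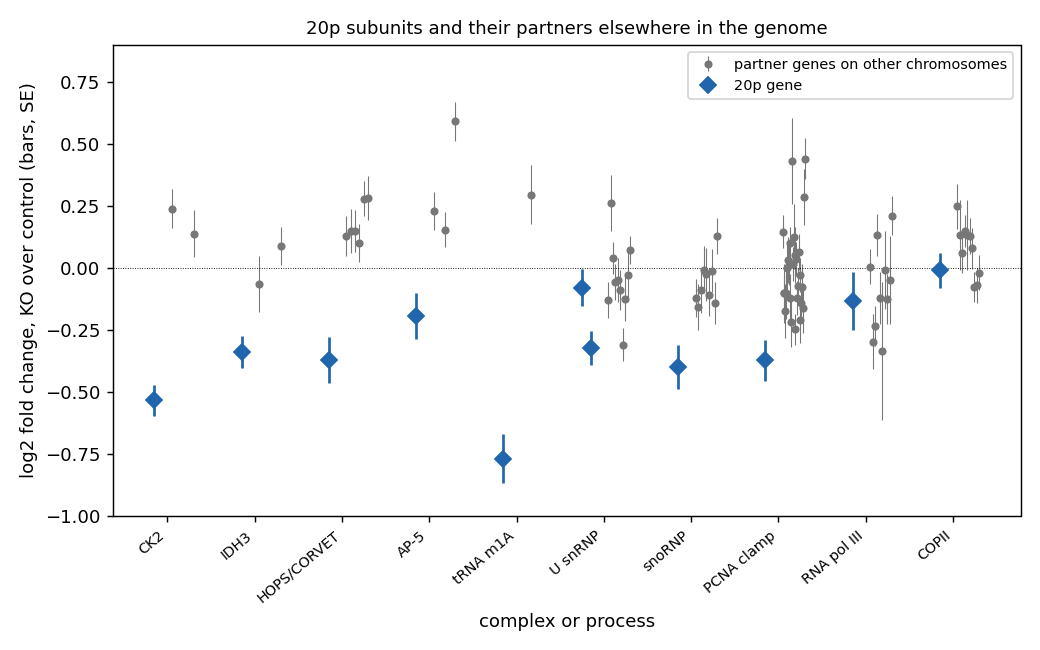
Log2 fold change of knockout over control (vertical axis, bars of SE) for 20p genes and for tested partner genes on other chromosomes, in 10 of the complexes or processes (horizontal axis). All 20p genes drawn lie at or below 0, and the partner genes of CK2, HOPS and CORVET, AP-5 and tRNA m1A lie above it, with the others on both sides.

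The other genes called lower, with their log2 fold changes, carry out a wide range of tasks. Among those of protein turnover and folding, the proteasome inhibitor PSMF1 had -0.40 ± 0.06 and NSFL1C, the p47 cofactor of the p97 ATPase, had -0.36 ± 0.06. In mitochondria, the ribosomal protein gene MRPS26 had -0.53 ± 0.11 and FASTKD5, which processes mitochondrial RNA, had -0.52 ± 0.08. ITPA, which removes inosine triphosphate from the nucleotide pool, had -0.49 ± 0.08, and GPCPD1, a glycerophosphocholine phosphodiesterase, had -0.50 ± 0.10. In all of these the knockout libraries lay below the controls. The prion protein gene PRNP had -0.39 ± 0.07, the kinase gene STK35 -0.33 ± 0.07, the syntaphilin gene SNPH -0.40 ± 0.09, and the zinc-finger gene ZCCHC3 -0.38 ± 0.08. Of the genes not called, those with no overlap and a negative value not yet named were TBC1D20, FKBP1A, UBOX5, DDRGK1, PANK2 and RBBP9, between -0.26 and -0.21. FAM110A, SDCBP2, PTPRA, ATRN, RNF24, MKKS and KAT14 were negative with overlapping groups, between -0.19 and -0.06. SDCBP2, the tested gene with the lowest level, had 0.903, 0.288 and 0.998 CPM in the knockout and 0.540, 0.666 and 1.11 CPM in the controls, and an SE of 0.48.

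Of the 7 genes with a positive value, KIF16B, a kinesin that carries early endosomes, was the one that was called. It had 10.1, 9.06 and 9.88 CPM in the knockout, against 6.82, 6.10 and 6.19 CPM in the controls (0.60 ± 0.12), with no overlap. SMOX, the spermine oxidase, had 29.4, 24.1 and 22.8 CPM in the knockout and 23.4, 23.1 and 21.9 CPM in the controls (0.16 ± 0.11). SIRPA, the receptor of CD47, had 10.3, 11.9 and 10.5 CPM in the knockout and 9.38, 10.2 and 11.3 CPM in the controls (0.08 ± 0.12). Both overlapped, and these are the distal genes of the list that were not negative. BTBD3, a BTB-domain protein, had 31.4, 33.6 and 32.9 CPM in the knockout and 31.5, 29.7 and 29.8 CPM in the controls (0.11 ± 0.08). RRBP1, the ribosome-binding protein of the endoplasmic reticulum, had 871, 618 and 740.2 CPM in the knockout and 795, 701 and 636 CPM in the controls (0.06 ± 0.12). NDUFAF5, an assembly factor of respiratory complex I, had 9.41, 13.5 and 12.9 CPM in the knockout and 10.7, 12.1 and 11.5 CPM in the controls (0.06 ± 0.15). For these genes and for ZNF133, a zinc-finger protein with 0.00 ± 0.17, the groups overlapped.

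What the genes share beyond position was looked for in their upstream windows, of which RefSeq gave 46. The 250 bases before the start held CCAAT in 37.0% of them, against 34.7% of the 11034 windows of tested genes and 33.0% of all 27305. GGGCGG stood in 65.2%, against 67.3% of tested and 42.3% of all. These shares are close to those of tested genes. TTTCGCGC was in STK35 alone (2.17%, against 0.861% of tested and 0.469% of all) and TTTGGCGC in TRMT6 alone (2.17%, against 0.861% of tested and 0.553% of all). TGACGTCA, the cyclic AMP response element, was in 0 of 46, against 2.91% of tested and 1.77% of all, and TATAAA in 0 of 46, against 5.32% and 11.1%. Each motif was searched on both strands. The median GC content was 62.4%, against 65.2% in windows of tested genes.

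Reads shared with other genes touch a few of the values. In GENCODE 29, 5 of the 57 genes share over 10% of their exon bases with a gene on the same strand: SNRPB, VPS16, PTPRA, MKKS and KAT14. On the opposite strand the share was at most 9.77%, for PANK2 with RNF24, and whether reads were counted by strand is not known from the sources. Of named pseudogene copies in the table, DSTNP2 held the most reads, 1.15% of those of DSTN, and PCNAP4, a copy of PCNA, held none.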

How the data were processed

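Poly-A enriched, strand-specific RNA libraries of 3 RNASEH2A knockout and 3 control cultures were grouped by the genotype label. FastQC, STAR version 2 and the GRCh38 build are named in the submitters' processing notes. How reads were counted, by strand or not, and on which annotation was not stated. The authors deposited raw read counts for 25330 genes, used for all main results, and log2 CPM values for 15066 genes, used for 1 alternative.

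Genes were kept by filterByExpr (14199) and tested with edgeR 4.0.16 in R 4.3.3 (TMM, quasi-likelihood F test, no covariate, two-sided, Benjamini-Hochberg adjustment, threshold 0.05). CPM are on the TMM scale, and log2 CPM use a prior count of 2. The CPM of the cell markers and the limits for a count of 0 are scaled by library total alone. The SE is the log2 fold change divided by the root of its F statistic. Replicate pairs differed by more than sampling noise, at 2.45 to 34.2 in chi-square per degree of freedom, so all 6 libraries were kept. The test was checked on simulated counts. Positions and upstream windows are from RefSeq GRCh38.p14, and exon overlaps from GENCODE 29.

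The members and gene lists were chosen with earlier results of these data known. Library values are given for PCNA, its 3 nearest tested genes on each side, the 6 most and 6 least negative members, complex subunits, CDC25B, MCM8 and JAG1. Values for CENPB, DSTN and the members called lower were added after they were seen. Alternatives were DESeq2 1.42.0, limma 3.58.1 on the deposited log2 CPM, other scalings and filters, a replicate block and leaving out each library. Neither DCN nor protein sequences were used here.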

Additional observations from a re-analysis of the deposited data

How the results depend on the processing

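The median log2 fold change of the 20p genes and the PCNA values kept their direction under DESeq2, limma on the deposited log2 CPM, other scaling and filters, and the median ran from -0.311 to -0.252 when single libraries were left out. The number of 20p genes called lower was 25, and 25 to 27 under those alternatives, 11 to 31 without single libraries. Genes changed numbered 1718, and 524 to 3430 without single libraries. Partner genes called numbered 6, and 1 to 19 without single libraries. The cause of these moves was not tested. With scaling factors computed without chromosome 20, an alternative chosen after seeing the data, 26 genes were called lower and the median was -0.26.

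Replicate numbers name passages. Same-numbered libraries correlated at 0.316, 0.139 and 0.0855 in their deviations from the group means. Of the 6 libraries, 3 correlated best with their own number. What same-numbered libraries share was not tested, and the main fit did not pair them. With the replicate block, 3099 genes, 32 of the 20p genes (lower) and 19 partner genes were called, and PCNA kept its call with a log2 fold change of -0.37. Depth limits PLCB1, SDCBP2, RASSF2 and DZANK1, at a few CPM or fewer.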

Other observations

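Some unlisted genes of the span, chosen here after their values were seen, moved much further than the listed ones. TASP1, the threonine aspartase that cleaves MLL proteins, lies at chr20:13104772-13638932 and had 10.4, 16.0 and 14.4 CPM in the knockout libraries, against 4.93, 5.61 and 4.84 CPM in the controls, a log2 fold change of 1.40 ± 0.17. LRRN4, a leucine-rich repeat neuronal protein beside FERMT1, had 2.37, 3.16 and 2.85 CPM in the knockout, against 6.41, 6.52 and 7.34 CPM in the controls (-1.28 ± 0.17). PLCB4, a phospholipase C next to PLCB1, had 0.187, 0 and 0.0713 CPM in the knockout, against 1.48, 1.54 and 1.63 CPM in the controls, so it was near the detection limit in the knockout. In all of these the groups did not overlap.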
